A study of Homo sapiens with 6 samples.

Results

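Metallothioneins, their metal-sensing regulator and a pair of zinc carriers were followed in HepaRG, an established human line of hepatic progenitor type, labelled as derived from a liver cancer. The group was defined by name as 9 genes: MT1E, MT1F, MT1G, MT1M, MT1X, MT2A, MTF1, SLC30A1 and SLC39A14. Of these, 7 had values among the 16659 genes of the deposited table, and MT1G and MT1M are not analysed here. RNA of 6 untreated libraries was compared, 3 of cells with a functional knockout of PXR and 3 of wild-type cells, which the design names as the control. PXR, encoded by NR1I2, is a nuclear receptor that responds to drugs and steroids and turns on genes of drug metabolism. The sources used here do not say how the knockout was made or whether it is 1 clone, so loss of PXR cannot be told apart from other differences between the cells. Throughout, knockout refers to the libraries that carry this label.

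Metallothioneins are small proteins whose many cysteines bind zinc, copper and cadmium, and the liver is among the organs that make most of them. Free zinc activates the transcription factor MTF1, which binds metal response elements in the promoters of metallothionein genes and of SLC30A1, whose product exports zinc across the plasma membrane. SLC39A14 encodes a carrier that brings zinc, manganese and iron into hepatocytes. Zinc carriers of the SLC30 family move zinc out of the cytosol, into organelles or out of the cell, and those of the SLC39 family move it into the cytosol.

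The promoters of MT2A and MT1X are shown because each holds several matches to the metal response element. Sequences are from RefSeq (GRCh38.p14) and cover the 250 bases before the RefSeq start, 5′ to 3′ on the gene's strand. Capitals mark each match to the core metal response element, spelled TGCACNC or TGCGCNC and searched on both strands.
MT2A promoter (chr16:56608334-56608583, plus strand): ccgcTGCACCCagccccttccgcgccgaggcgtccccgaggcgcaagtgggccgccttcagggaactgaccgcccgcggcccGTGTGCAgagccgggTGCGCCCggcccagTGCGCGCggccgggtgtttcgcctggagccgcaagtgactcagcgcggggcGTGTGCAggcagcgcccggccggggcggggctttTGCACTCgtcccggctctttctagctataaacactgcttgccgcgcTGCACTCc
MT1X promoter (chr16:56682220-56682469, plus strand): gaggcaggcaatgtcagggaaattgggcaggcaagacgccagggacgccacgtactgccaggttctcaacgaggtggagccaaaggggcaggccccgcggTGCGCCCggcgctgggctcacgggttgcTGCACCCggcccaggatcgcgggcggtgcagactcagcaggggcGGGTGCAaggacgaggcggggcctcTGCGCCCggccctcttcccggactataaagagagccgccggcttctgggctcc
The MT2A window held 7 matches, none overlapping another, the nearest starting 8 bases and the farthest 246 bases before the start. The MT1X window held 4, from 53 to 150 bases before the start. In the same window MTF1 held 0 matches and SLC30A1 held 1. SLC30A1's RefSeq start lies upstream of its start in GENCODE 29, and the MT2A window lies within the MT2A gene of that annotation. The MT1X and MTF1 windows each overlap the first bases of their gene in it. Of all 35116 RefSeq promoters, 24.8% held at least 1 match in the same 250 bases and 0.370% held at least 4. A match describes letters and does not show binding.

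The estimated depth was 33387989, 28154914 and 33393110 reads for knockout libraries 1 to 3, against 11359209, 19803478 and 20945994 for wild-type libraries 1 to 3, so every knockout library was deeper. Levels are scaled CPM, a linear signal normalized for depth, each with its SD (n = 3). Log2 changes are knockout minus wild type of log2(scaled CPM + 0.5), which understates changes of low genes, and carry a standard error (SE). The test was limma with Benjamini-Hochberg adjustment over all genes, called at an adjusted p under 0.05. Nothing in the labels says that libraries came from separate cultures, and the spread behind the p-values may therefore be technical. NR1I2 had 13.1, 13.4 and 14.3 CPM in the knockout, against 8.24, 7.04 and 7.60 CPM in wild type (log2 change 0.80, SE 0.0839, limma adjusted p = 6.77e-07). RNA of the gene as a whole cannot tell a working receptor from a disabled one and leaves the label unchecked. All 7 measured hepatocyte markers were called higher in the knockout and summed to 42706 to 43900 CPM, against 2212 to 2285 CPM in wild type. Among all tested genes, 40.3% were called higher and 39.6% lower, so counts over a few markers say little by themselves. Of the markers with values, 2 of 3 for bile duct cells, 4 of 7 for stellate and mesenchymal cells, 1 of 2 for endothelial cells and 2 of 3 for macrophages and leukocytes were called higher. Their summed levels were 331 to 354, 406 to 423, 215 to 222 and 22.7 to 24.1 CPM in the knockout, against 118 to 121, 109 to 113, 54.8 to 55.1 and 13.6 to 16.8 CPM in wild type. Single genes made up most of the first 3 sums: KRT19, DCN and KDR had 334, 335 and 218 CPM in the knockout, against 111, 63.1 and 53.3 CPM in wild type. Other markers of the same lists fell: DES, LRAT, RGS5, KRT7 and PECAM1 had 1.18, 5.65, 2.11, 0.872 and 0.353 CPM in the knockout, against 18.5, 10.4, 3.70, 1.57 and 1.58 CPM in wild type. CD14 fell to 1.55 CPM in the knockout, against 2.03 CPM in wild type. KRT7 and PECAM1 passed the filter on low values (above 1 scaled CPM in at least 3 libraries) through wild type only and so had to differ. They are the only falls among the tested bile duct and endothelial markers. The part of these differences in the results that follow was not tested. In bulk RNA, fewer cells of a type and less RNA per cell cannot be told apart.

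MT2A, MT1X and MT1E were lower in the knockout, to between 0.383 and 0.571 of the wild-type level, and so was MTF1. SLC30A1 and SLC39A14 were higher, by 1.55- and 1.79-fold. MT1F, at about 1 CPM in both groups, did not pass the test. Of the 7 measured genes, 2 were thus called higher and 4 lower, with a median log2 change of -0.45. Calls were common in these data: 79.9% of all 16219 tested genes passed, 40.3% higher and 39.6% lower, with a median change of 0.014. The share of members called is near that background, so their sizes and levels carry the description. The median size of a called change was 0.61 on the log2 scale.

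**Figure D1:**
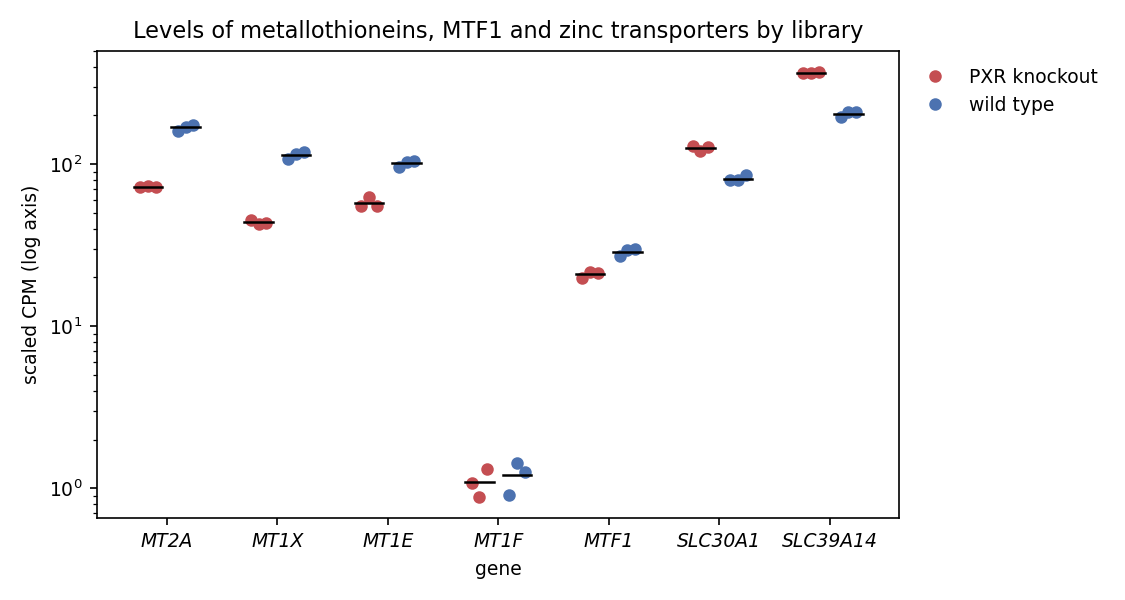
Scaled CPM (log axis) of the 7 measured genes in 3 knockout libraries (red) and 3 wild-type libraries (blue); points are libraries and black lines are group means. The groups overlap at MT1F, near 1 CPM, and at no other gene shown. Over all tested genes, 80.8% had groups that did not overlap.

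MT2A (ENSG00000125148.7, chromosome 16, 56608199 to 56609497 in GRCh38, plus strand) encodes a widely expressed metallothionein. It had 72.8, 73.1 and 72.04 CPM in the knockout, against 161, 171 and 174 CPM in wild type. The wild-type libraries were all more than 2-fold above the knockout libraries, which lay within about 1 CPM of each other. The log2 change was -1.21 (SE 0.0335, limma adjusted p = 2.91e-13). Genes called lower by at least 2-fold, as MT2A and MT1X were, made up 10.1% of those tested.

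MT1X (ENSG00000187193.9, chromosome 16, 56682424 to 56684196, plus strand) is the last gene of the metallothionein cluster. It had 45.2, 42.9 and 43.3 CPM in the knockout, against 108, 115 and 120 CPM in wild type. It fell most among the members, with a log2 change of -1.37 (SE 0.0415, limma adjusted p = 7.00e-13).

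MT1E (ENSG00000169715.14, chromosome 16, 56625475 to 56627112, plus strand) had 55.6, 62.6 and 55.0 CPM in the knockout, against 96.5, 103 and 104 CPM in wild type. Knockout library 2 was the highest of its group and still below every wild-type library. Groups did not overlap for 80.8% of all tested genes. The log2 change was -0.80 (SE 0.0483, limma adjusted p = 1.35e-09).

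MT1F (ENSG00000198417.7, chromosome 16, 56657694 to 56660698, plus strand) had 1.08, 0.889 and 1.31 CPM in the knockout, against 0.907, 1.44 and 1.26 CPM in wild type. These values rested on 101 reads over the knockout libraries and 69 over the wild-type libraries, and the groups overlapped. The log2 change was -0.09 with a 95% interval from -0.45 to 0.26 (limma adjusted p = 0.620), so a change within that range was not excluded.

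MT1A (ENSG00000205362.11, chromosome 16, 56638666 to 56640087), the other metallothionein with values, is not among the 9 genes and was named by rule from the list of further metallothioneins. It had 1.82, 2.00 and 1.71 CPM in the knockout, against 15.7, 18.0 and 17.8 CPM in wild type. The mean knockout level was 0.107 of the wild-type one, with a log2 change of -2.91 (SE 0.101, limma adjusted p = 3.18e-12). Of the 15 further metallothionein genes and pseudogenes listed, it was the 1 with values.

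The pool of measured metallothionein RNA was smaller in the knockout. MT2A, MT1X, MT1E and MT1F summed to 175, 179 and 172 CPM in the knockout, against 366, 390 and 399 CPM in wild type. The means were 175 ± 3.95 and 385 ± 17.3 CPM (SD, n = 3 each), a log2 ratio of -1.14. With MT1A the sums averaged 177 ± 4.10 CPM in the knockout and 402 ± 18.5 CPM in wild type. The 4 genes took 0.0165% to 0.0172% of the signal in the knockout and 0.0391% to 0.0424% in wild type.

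The composition of that pool also differed. MT1E made up 31.8%, 34.9% and 32.1% of it in the knockout, against 26.4%, 26.3% and 26.1% in wild type. MT1X made up 25.9%, 23.9% and 25.2% in the knockout, against 29.4%, 29.6% and 29.9% in wild type, and MT2A 41.7%, 40.7% and 42.0% in the knockout, against 43.9%, 43.7% and 43.6% in wild type. The MT1E share was thus higher, and the shares of MT1X and MT2A lower, in every knockout library than in any wild-type library. The log2 ratio of MT1E to MT1X averaged 0.40 ± 0.132 in the knockout and -0.18 ± 0.0196 in wild type (SD, n = 3 each). That of MT1E to MT2A averaged -0.33 ± 0.0951 in the knockout and -0.74 ± 0.00263 in wild type. That of MT1X to MT2A averaged -0.73 ± 0.0420 in the knockout and -0.56 ± 0.0181 in wild type. For each of the 3 ratios the groups did not overlap, and the two-sided exact permutation p was 0.1, as was the value adjusted over the 3 ratios. This is the smallest p that 3 libraries against 3 allow. A ratio within a library does not depend on the scaling between libraries.

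**Figure D2:**
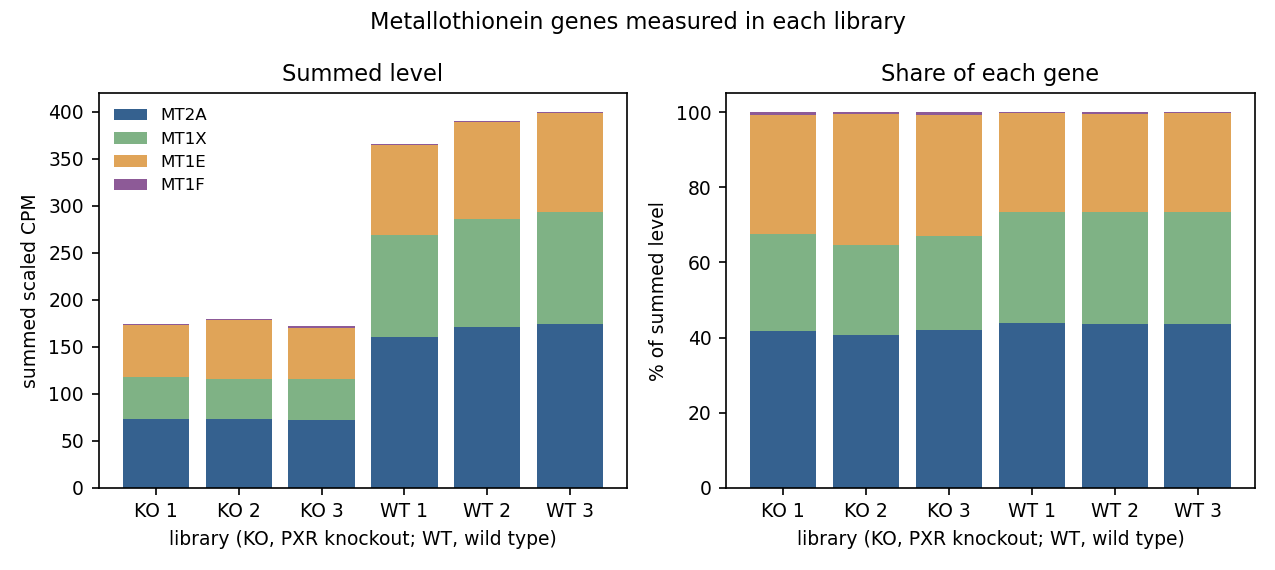
Summed scaled CPM of MT2A, MT1X, MT1E and MT1F in each library (left) and the percentage of that sum taken by each gene (right), with knockout (KO) libraries before wild-type (WT) libraries. The sums lie between 172 and 179 CPM in the knockout and between 366 and 399 CPM in wild type, and the MT1E share lies between 31.8% and 34.9% in the knockout and between 26.1% and 26.4% in wild type.

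The genes are near copies of one another, which bears on how reads are assigned. In GENCODE 29 transcripts, MT1A, MT1E, MT1F, MT1X and MT2A each had 186 coding bases with 20 cysteine codons among 61. Coding identity between pairs ran from 88.7% for MT1F with MT1X to 94.6% for MT1E with MT1A. No stretch of 100 bases, the read length per the labels, was shared exactly between a coding transcript of these 5 genes and a transcript of another metallothionein gene or pseudogene. Estimated reads were whole numbers in 6 of 6 libraries for MT1E and MT1F and in 5 of 6 for MT1X, MT2A and MT1A. Per length, the order of the 3 abundant genes depended on the transcript taken. With the longest coding transcript MT2A was highest, at 92.4 CPM per kb in the knockout and 214 in wild type, and MT1E lowest, at 79.2 in the knockout and 139 in wild type. With the shortest, MT1E was highest, at 174 CPM per kb in the knockout and 305 in wild type, and MT1X lowest, at 97.3 in the knockout and 254 in wild type. MT1F was lower than these 3 by either measure, at most 2.62 CPM per kb in the knockout and 2.89 in wild type.

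The metallothionein cluster spans 56565049 to 56684196 on chromosome 16 and holds 16 metallothionein genes and pseudogenes in GENCODE 29. Its neighbours did not share a direction. Of 25 other tested genes starting within 1 Mb of its ends, 12 were called higher and 11 lower, with a median log2 change of 0.21. Among all tested genes 40.3% were called higher and 39.6% lower, a similar split, so these counts show nothing particular to the neighbours. ADGRG3, counted among the falls, passed the filter on low values through wild type only and so had to differ. BBS2, the nearest tested gene before the cluster and part of a complex of the primary cilium, had 45.0 ± 1.86 CPM in the knockout and 45.4 ± 1.36 CPM in wild type (SD, n = 3 each; limma adjusted p = 0.791). NUP93, the nearest after it, encodes a nuclear pore protein and fell to 23.1 ± 1.01 CPM in the knockout, against 39.8 ± 1.36 CPM in wild type (log2 change -0.77, SE 0.0501, limma adjusted p = 3.23e-09). The median change of the 746 tested genes of chromosome 16 was -0.04.

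**Figure D3:**
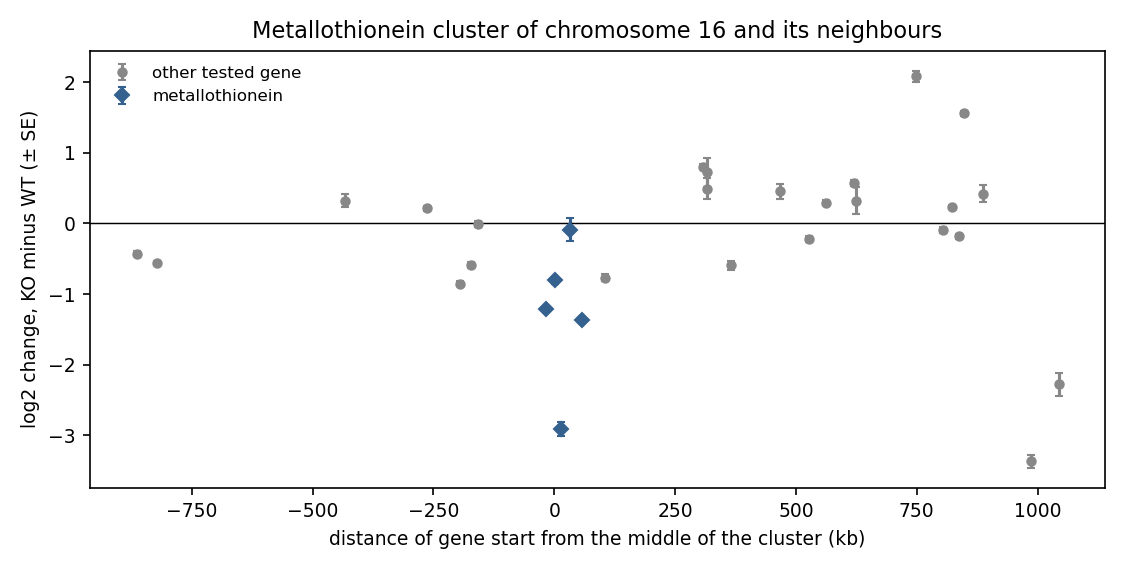
Log2 change (knockout minus wild type, bars ± SE) of the 5 measured metallothionein genes (blue diamonds) and 25 neighbouring tested genes (grey circles) against the distance of each gene's start from the middle of the cluster in kb. The neighbours lie on both sides of 0, 12 called higher and 11 lower. Of all tested genes, 40.3% were called higher and 39.6% lower.

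MTF1 (ENSG00000188786.10, chromosome 1, 37809567 to 37859620, minus strand), the zinc-sensing activator of metallothionein genes, was modestly lower. It had 19.9, 21.7 and 21.3 CPM in the knockout, against 27.2, 29.5 and 29.9 CPM in wild type. The groups did not overlap, which was so for 80.8% of all tested genes. The log2 change was -0.45 (SE 0.0570, limma adjusted p = 4.43e-06).

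SLC30A1 (ENSG00000170385.10, chromosome 1, 211571568 to 211578742, minus strand), the zinc exporter of the plasma membrane and a known target of MTF1, was higher. It had 130, 121 and 127 CPM in the knockout, against 79.6, 79.7 and 85.2 CPM in wild type. The lowest knockout library lay well above the highest wild-type one, and 80.8% of all tested genes likewise had no overlap. The log2 change was 0.62 (SE 0.0368, limma adjusted p = 1.12e-09).

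SLC39A14 (ENSG00000104635.14, chromosome 8, 22367249 to 22434129, plus strand), the importer of zinc, manganese and iron, was also higher. It had 367, 365 and 371 CPM in the knockout, against 195, 211 and 210 CPM in wild type. The groups did not overlap, as for 80.8% of all tested genes. The log2 change was 0.84 (SE 0.0312, limma adjusted p = 6.48e-12). Per length of the longest coding transcript it reached 79.2 CPM per kb in the knockout and 44.2 in wild type, and SLC30A1 reached 23.0 in the knockout and 14.9 in wild type.

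The other genes of the SLC30 family moved in both directions. Of 8 tested, 2 rose, 5 fell and 1, the Golgi carrier gene SLC30A7, did not pass, with a median log2 change of -0.24. All tested genes were also split, with 40.3% called higher and 39.6% lower. SLC30A10, whose product exports manganese from liver cells, rose to 7.21, 6.96 and 6.66 CPM in the knockout, against 0.412, 0.718 and 0.450 CPM in wild type (log2 change 2.87, SE 0.140, limma adjusted p = 1.32e-10). Its wild-type level rested on 30 reads over 3 libraries. SLC30A4, an endosomal carrier gene, rose to 17.3 ± 0.675 CPM in the knockout, against 11.8 ± 0.431 CPM in wild type. SLC30A5 and SLC30A6, whose products work as a pair in the secretory pathway, fell by 0.29 and 0.60 on the log2 scale, and SLC30A9, a mitochondrial carrier gene, by 0.19. SLC30A8, best known from insulin granules, had 3 reads in all knockout libraries and 163 in all wild-type libraries. SLC30A3, best known from synaptic vesicles, fell to 0.146 ± 0.0803 CPM in the knockout, against 1.93 ± 0.114 CPM in wild type. SLC30A3, SLC30A8, SLC30A10 and the importer gene SLC39A5 passed the filter on low values through 1 group only and so had to differ.

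Of 10 tested SLC39 importer genes other than SLC39A14, 2 rose and 6 fell, with a median log2 change of -0.21. The shares over all tested genes were 40.3% higher and 39.6% lower. SLC39A5 rose to 3.05, 3.44 and 2.55 CPM in the knockout, against 0.0824, 0.144 and 0.315 CPM in wild type, where it rested on 11 reads (log2 change 2.38, SE 0.168, limma adjusted p = 8.52e-09). SLC39A11 rose to 18.5 ± 0.274 CPM in the knockout, against 12.8 ± 0.284 CPM in wild type. SLC39A6 fell most, to 62.6 ± 2.55 CPM in the knockout, against 124 ± 3.77 CPM in wild type (log2 change -0.98, SE 0.0371, limma adjusted p = 8.23e-12). SLC39A8, the closest relative of SLC39A14 and like it a carrier of zinc and manganese, fell to 67.2, 68.2 and 67.6 CPM in the knockout, against 107, 107 and 107 CPM in wild type (log2 change -0.66, SE 0.0296, limma adjusted p = 5.66e-11). SLC39A9, SLC39A13, SLC39A7 and SLC39A3 fell by 0.64, 0.30, 0.25 and 0.17 on the log2 scale. SLC39A3 had an adjusted p of 0.0331 in limma, and its groups overlapped. SLC39A1 and SLC39A10 did not pass, with 95% intervals of the log2 change from -0.06 to 0.09 and from -0.05 to 0.17. With libraries scaled to equal sums, which moves the median of all genes to -0.12, SLC39A1 and SLC30A7 were called lower, at -0.13 and -0.12, and SLC39A1 was also called lower with quantile normalization.

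**Figure D4:**
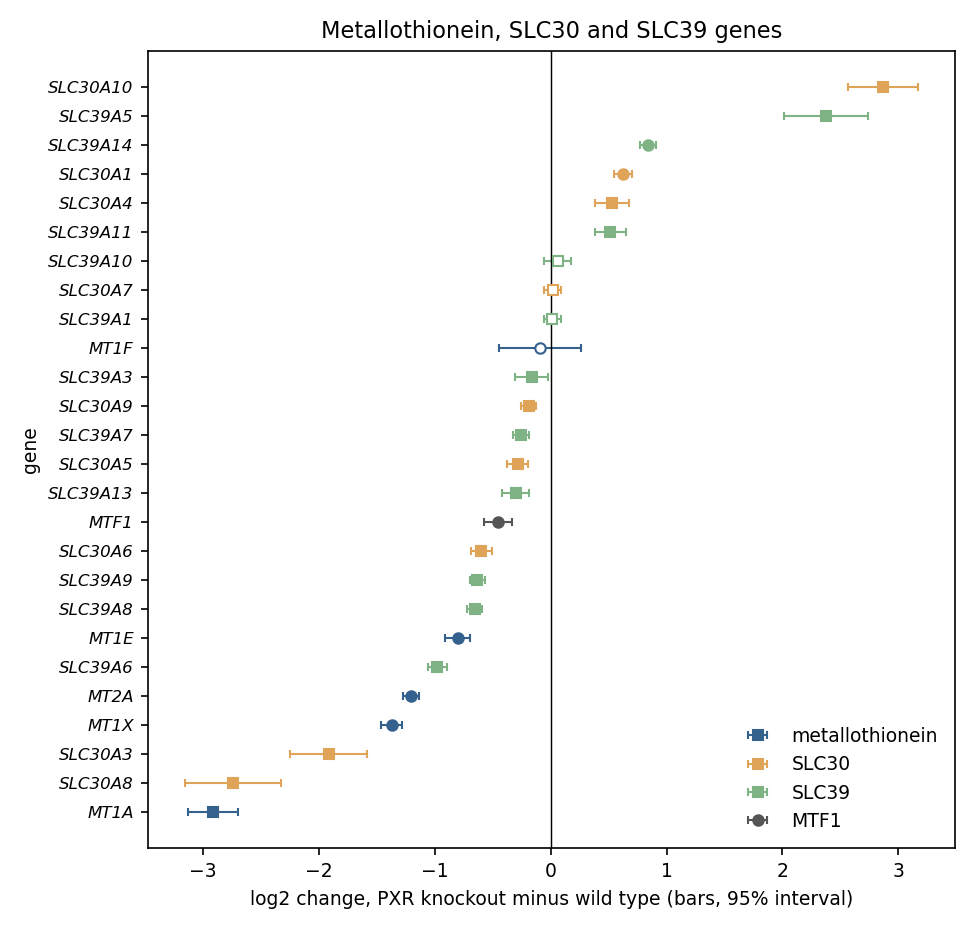
Log2 change (knockout minus wild type) with 95% intervals of the tested metallothionein, SLC30 and SLC39 genes and MTF1; circles are members of the group, squares are their relatives, and open symbols did not pass the test. MT1A lies lowest at -2.91 and SLC30A10 highest at 2.87; SLC30A1 and SLC39A14 lie at 0.62 and 0.84.

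Copper shares metallothioneins with zinc. Of 15 copper-handling genes, 8 rose, 5 fell and 2 did not pass, with a median log2 change of 0.098. Among all tested genes 40.3% were called higher and 39.6% lower, so a mix of directions is not particular to this list. With libraries scaled to equal sums, 5 of the copper genes rose and 7 fell. The largest rises were those of the copper importer gene SLC31A1, to 115 ± 2.24 CPM in the knockout against 68.7 ± 5.37 CPM in wild type, and of its relative SLC31A2, to 17.4 ± 1.05 CPM in the knockout against 6.81 ± 0.553 CPM in wild type. The metalloreductase gene STEAP4 and SCO2, needed to load copper into cytochrome oxidase, fell most, by 0.90 and 0.50 on the log2 scale. Tested genes in the 20 Mb window around SCO2 had a median log2 change of -0.87, a larger fall than its own. That median was 0.52 around STEAP4 and 0.20 around SLC31A1 and SLC31A2.

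Among 10 heat shock and stress genes that cadmium is known to induce along with metallothioneins, 8 rose and 2 fell, with a median log2 change of 0.38. Over all tested genes, 40.3% were called higher and 39.6% lower. The co-chaperone genes DNAJA1 and DNAJB1 rose to 205 ± 4.25 and 125 ± 1.80 CPM in the knockout, against 109 ± 2.58 and 81.1 ± 3.42 CPM in wild type. Their log2 changes were 0.90 and 0.62, where tested genes in the 20 Mb window around each had a median of 0.48 and 0.091. BAG3 and HSPA8 fell by 0.12 and 0.072 on the log2 scale. HSPA8 had an adjusted p of 0.0398 in limma, which was 0.0599 with the replicate number as a block, and without 1 of knockout libraries 2 and 3 or wild-type libraries 2 and 3 it was 0.0638 to 0.156. With quantile normalization the change of HSPA8 was -0.55 (limma adjusted p = 2.61e-10), and with libraries scaled to equal sums that of BAG3 was -0.26. HSPA1A and HSPA1B, counted among the rises, are near-identical and their levels are uncertain.

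Glucocorticoids also induce metallothionein genes in liver cells. Of 12 tested genes that respond to glucocorticoids or encode their receptor, 10 rose and 2 did not pass, with a median log2 change of 0.49. The share called higher over all tested genes was 40.3%. TAT, a liver enzyme of tyrosine breakdown, rose to 49.7 ± 1.24 CPM in the knockout, against 1.48 ± 0.156 CPM in wild type, and the kinase gene SGK1 to 69.1 ± 2.38 CPM in the knockout against 27.7 ± 1.22 CPM in wild type. With libraries scaled to equal sums or quantile normalization, 1 of the 12 was called lower.

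SLC39A14 and metallothionein genes are known to respond to interleukin-6 in mouse liver. Of 13 tested genes of interleukin-6 signalling and the acute phase response, 12 rose and 1 fell, with a median log2 change of 2.78. Over all tested genes, 40.3% were called higher and 39.6% lower. The plasma protein genes of the list set its median, with log2 changes from 1.80 for ORM1 to 5.39 for HP. The signalling and transcription factor genes changed less: IL6R -0.19, IL6ST 0.06, CEBPB 0.54, STAT3 0.83 and SOCS3 0.88. The rise of IL6ST had an adjusted p of 0.0420 in limma. With the replicate number as a block 11 genes of the list rose, and with libraries scaled to equal sums 11 rose and 2 fell. HP, which encodes the haemoglobin carrier haptoglobin, and the fibrinogen gene FGB rose to 2330 ± 6.65 and 2441 ± 32.6 CPM in the knockout, against 55.1 ± 3.57 and 120 ± 4.54 CPM in wild type. The receptor gene IL6R fell to 99.3 ± 2.86 CPM in the knockout, against 113 ± 1.14 CPM in wild type. CRP, counted among the rises, passed the filter on low values through the knockout only and so had to differ. All 4 genes for plasma proteins that carry zinc rose, of which HRG and AHSG likewise passed only through the knockout. ALB, for albumin, had 32829 ± 511 CPM in the knockout and 867 ± 36.1 CPM in wild type, and AHSG, for a fetuin, had 24.7 ± 0.816 CPM in the knockout and 0.187 ± 0.171 CPM in wild type. ALB and FGB are also among the hepatocyte markers, so the sum of those markers in part restates these values.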

How the data were processed

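RNA of 6 HepaRG libraries was sequenced as paired-end reads from a stranded mRNA kit, per the labels' protocols. FastQC, Trim Galore, Bowtie2, edgeR, limma and the build hg38 stand, without versions or roles, in the submitters' processing notes. The deposited table is titled as log2 CPM, but holds linear signal values; its columns summed to 936409 to 1042826. Only 67.9% to 76.6% of values under 20 reads were whole numbers of reads (tolerance 0.006 of a read), which left out tests made for counts. Depth is the column sum over the step worth 1 read. The design written first assumed log2 or linear values and log2(scaled CPM + 0.5) was tested.

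Of 16673 rows, 14 second rows of an identifier were left out and 21 symbols turned into dates were restored; 16608 identifiers matched GENCODE 29. Genes above 1 scaled CPM in at least 3 of 6 libraries were tested with limma 3.58.1 in R 4.3.3 (model by group, trended empirical Bayes, two-sided). The same fit was run on simulated data in which far fewer genes changed than were called here. That run therefore does not check the calls of these data. Replicates differed by more than sampling noise on average (mean chi-square per gene 2.27 to 9.99). Exact tests used scipy 1.17.1 under Python 3.11.15.

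The members and lists were chosen with earlier results of these data known. Genes named are NR1I2, the members, their measured relatives, up to 2 largest rises and falls of each other list, the nearest tested neighbours of the cluster, and the 5 genes most like the summed metallothionein level. Further genes are named where they bear on a marker sum, the filter or a list median. Alternatives changed the pseudocount, filter, scaling, variance model, block, window correction and libraries.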

Additional observations from a re-analysis of the deposited data

How the results depend on the processing

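The members gave 2 higher and 4 lower calls under every alternative, including without any 1 library, with the replicate number as a block (2 and 4) and with the 20 Mb window median taken out. Their log2 changes ranged from -1.34 to -1.17 for MT2A, -1.51 to -1.33 for MT1X, -0.94 to -0.76 for MT1E, -0.59 to -0.36 for MTF1, 0.49 to 0.66 for SLC30A1 and 0.70 to 0.91 for SLC39A14. MT1F never passed, and its change was 0.0024 and 0.0082 without knockout library 2 or wild-type library 2, in a range from -0.22 to 0.0082 without 1 library. The summed level had a log2 ratio of -1.27 with equal sums and -1.17 to -1.11 without 1 library. Calls over all genes were 6534 higher and 6426 lower, 5346 and 7715 with equal sums. Same-numbered libraries did not deviate together (correlations -0.0613 to 0.0249). No pairing by number was thus seen, though a weak one could be hidden by noise in single genes. The block gave 6518 and 6398 calls. Among lists it left 1 fall for 2 among stress genes, 7 rises for 8 among copper genes and 11 for 12 among interleukin-6 genes.

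Equal sums turned SLC30A7, SLC39A1 and SLC39A10 to -0.12, -0.13 and -0.078, and BBS2 became called at -0.15; small falls grew, to -0.33 for SLC30A9, -0.30 for SLC39A3, -0.39 for SLC39A7, -0.33 for IL6R and -0.26 for BAG3. Quantile normalization gave SLC30A7 -0.028 and SLC39A1 -0.092, the second now called lower (limma adjusted p = 0.0167). Without 1 library SLC30A7 ranged from -0.0011 to 0.045, SLC39A1 from -0.021 to 0.037 (turning at -0.0041 and -0.021) and BBS2 from -0.046 to 0.0088 (turning at 0.0024 and 0.0088), none past the threshold. SLC39A3 lost its call in 5 alternatives (limma adjusted p 0.0567 to 0.154). With equal sums or quantile normalization copper genes gave 5 rises and glucocorticoid genes 1 fall, and equal sums gave 2 falls among interleukin-6 genes. Falls among stress genes were 1 without a mean-variance trend and 1 to 2 without 1 library. Filtering above 5 CPM left 3 falls in the SLC30 list and 1 rise in the SLC39 list, as fewer genes were tested. For low genes the pseudocount sets the size: SLC30A8 changed by -2.74 as reported, -1.98 with a pseudocount of 1 and -6.16 with voom weights. For the other shifts the cause was not tested.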

Other observations

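Across the 6 libraries, the genes whose log2 level followed the summed metallothionein level most closely were ATP1B3, a subunit of the sodium pump, RRS1, a ribosome assembly factor, SLIRP, a mitochondrial RNA-binding protein, LGALS1, galectin-1, and DPCD. Their Pearson r lay between 0.9998 and 0.9999, among 11319 genes with a mean of at least 8 scaled CPM. The points share libraries and depth and fall into 2 groups, and 1745 genes had an r of at least 0.99, so the order within them describes these libraries only. ATP1B3 had 23.3 ± 0.662 CPM in the knockout and 50.7 ± 2.52 CPM in wild type, and LGALS1 had 60.0 ± 1.57 CPM in the knockout and 111 ± 3.82 CPM in wild type (SD, n = 3 each).

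Within the 250 bases before the RefSeq start, 4 of 8 SLC30 genes and 5 of 12 SLC39 genes with an entry, members left out, held at least 1 match to the metal response element. Over all 35116 RefSeq promoters the share was 24.8%. That share is per promoter, whereas a gene counted here if any of its promoters held a match, so the units differ. The genes with a match were SLC30A2, SLC30A3, SLC30A4 and SLC30A6, and SLC39A1, SLC39A3, SLC39A6, SLC39A8 and SLC39A13. Those of them that were tested include genes called higher, called lower and not past the threshold.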
